A study of Rattus norvegicus with 20 samples.

Results

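The endocrine islet transcription factors described here are 8 genes chosen by name from general knowledge of islet cell identity: Pdx1, Nkx6-1, Nkx2-2, Mafa, Neurod1, Pax6, Isl1 and Rfx6. These genes and the gene lists below were chosen with earlier results of these data known, so counts on them are not blind to the data. Of these, 7 were measured among the 14217 genes named on the array, and Rfx6 was not analysed here. Expression was measured on 20 Affymetrix arrays, 1 per sample, of islets from male Wistar rats aged 8 weeks, kept in medium with 10% serum and 8 mM glucose. There were 5 arrays each of islets given an adenovirus for the orphan nuclear receptor Nr4a1, of islets given one for the related receptor Nr4a3, of islets given one for green fluorescent protein (GFP) as the virus control, and of untreated islets. Virus was present for 18 h and islets were collected 48 h after it was added. The series asks about both receptors in relation to beta cell division driven by Nkx6-1, so the level of the rat Nkx6-1 gene itself is of interest. Levels are log2 intensities, in which a difference of 1 is a doubling, and each gene is read from its brightest probe set.

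Islets hold several hormone cell types, of which the insulin-secreting beta cell is the most abundant in rodents. Pdx1, Nkx6-1, Nkx2-2 and Isl1 are homeodomain factors, Pax6 joins a paired domain to a homeodomain, Mafa is a basic leucine zipper factor and Neurod1 a basic helix-loop-helix factor. Pdx1, Nkx6-1 and Mafa mark beta cells in the adult rodent islet (Pdx1 also delta cells), whereas Neurod1, Pax6 and Isl1 are found across the hormone cell types and Nkx2-2 in most of them. Pdx1, Mafa and Neurod1 bind the insulin promoter.

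Some facts on the arrays touch every result. The delivered genes did not pass the test where the labels place them: Nr4a1 averaged 5.99 ± 0.12 in the arrays labelled Nr4a1 and 6.07 ± 0.09 in the GFP arrays (SD, n = 5 each), and the brightest Nr4a3 probe set averaged 5.82 ± 0.19 in the arrays labelled Nr4a3 and 5.63 ± 0.17 in the GFP arrays. Where the label is Nr4a1 that Nr4a3 probe set rose against GFP by 0.44 ± 0.10 (SE, limma adjusted p = 0.00562). A dimmer one was higher than GFP by 0.50 ± 0.23 (SE) in arrays labelled Nr4a3 and by 0.75 ± 0.23 in those labelled Nr4a1, with limma adjusted p values of 0.423 and 0.0641 over all probe sets. Whether these probe sets read a virus-borne transcript was not tested, and group names below are those of the labels. Those labels also conflict, since their treatment protocol names beta-galactosidase and Nkx6-1 viruses and their titles name GFP, Nr4a1 and Nr4a3. Nr4a3 replicate 2 stood apart, with a mean correlation across genes of 0.941 with the other arrays, against 0.982 to 0.989 for the rest. Its 3' and 5' beta-actin control probe sets differed by 4.62, against 1.5 to 2.21 in the other 19 arrays, a sign of RNA quality. The like difference for GAPDH was 0.271 to 0.357 in Nr4a1 arrays and 0.499 to 0.739 in GFP arrays, and its part in the results was not tested. In bulk islet RNA, fewer cells of a type and less RNA per cell cannot be told apart.

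In the islets labelled Nr4a1, 2 of the 7 measured factors fell against GFP, Pdx1 and Nkx6-1, and 0 rose. Both are homeodomain factors of the beta cell, but a homeodomain is also present in Nkx2-2, Isl1 and Pax6, which were not called. Across all 14217 genes, 8.71% were called in this comparison, 6.16% higher and 2.55% lower. All 7 factors had a lower mean in the Nr4a1 arrays, with a median difference of -0.37 against -0.00 over all genes, and 3 had an unadjusted p under 0.05. No share of all genes at that unadjusted p is given here, so this and later counts at it have no background. The 2 called factors were also the 2 whose Nr4a1 and GFP arrays did not overlap, where 5.63% of all genes had every Nr4a1 array below every GFP array.

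Pdx1, which directs pancreas formation and activates insulin and other beta cell genes, had the smallest adjusted p of the 7. It read 8.96, 9.69, 9.65, 9.48 and 9.32 in the Nr4a1 arrays, against 10.15, 10.08, 10.31, 9.91 and 10.10 in the GFP arrays. Every Nr4a1 array lay below every GFP array and below every untreated array, where Pdx1 read 9.96, 10.24, 9.87, 10.05 and 9.97. The difference from GFP was -0.69 ± 0.13 (SE, 95% interval -0.96 to -0.43, limma adjusted p = 0.00141), which is 0.619 times the GFP level. Leaving out each of the 20 arrays in turn moved it between -0.76 and -0.58 and kept the call each time, with limma adjusted p values up to 0.00597. With the untreated arrays in place of GFP, an alternative chosen after the data were seen, the difference was -0.60 (limma adjusted p = 0.00499). With the level of acinar genes (the exocrine cells of the pancreas) added as a covariate, it was -0.41 and no longer passed (limma adjusted p = 0.320).

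Nkx6-1, which keeps beta cells apart from other hormone cells, read 9.80, 10.35, 10.37, 10.33 and 10.02 in the Nr4a1 arrays, against 10.75, 10.43, 10.68, 10.54 and 10.60 in the GFP arrays. The groups did not overlap, but the highest Nr4a1 array and the lowest GFP array were close, and the untreated arrays, at 10.74, 10.53, 10.65, 10.63 and 10.22, reached into the Nr4a1 range. The difference from GFP was -0.42 ± 0.12 (SE, 95% interval -0.67 to -0.18, limma adjusted p = 0.0296), or 0.746 times the GFP level. This call depended on single arrays. Without Nr4a1 replicate 1 the difference was -0.33 with an adjusted p of 0.104 by limma, and the adjusted p was 0.0729 without Nr4a1 replicate 5, 0.0834 without GFP replicate 1, 0.0709 without GFP replicate 3 and 0.0593 without GFP replicate 5. Against the untreated arrays the difference was -0.38 (limma adjusted p = 0.0546), and with the acinar covariate -0.10 (limma adjusted p = 0.873). The means were 10.18 ± 0.25 in Nr4a1 arrays, 10.44 ± 0.17 in Nr4a3 arrays and 10.60 ± 0.12 in GFP arrays, against 10.56 ± 0.20 in untreated arrays (SD, n = 5 each). No virus group was thus above the untreated group beyond its spread, and whether the probe set reads a virus-borne Nkx6-1 was not tested.

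**Figure D1:**
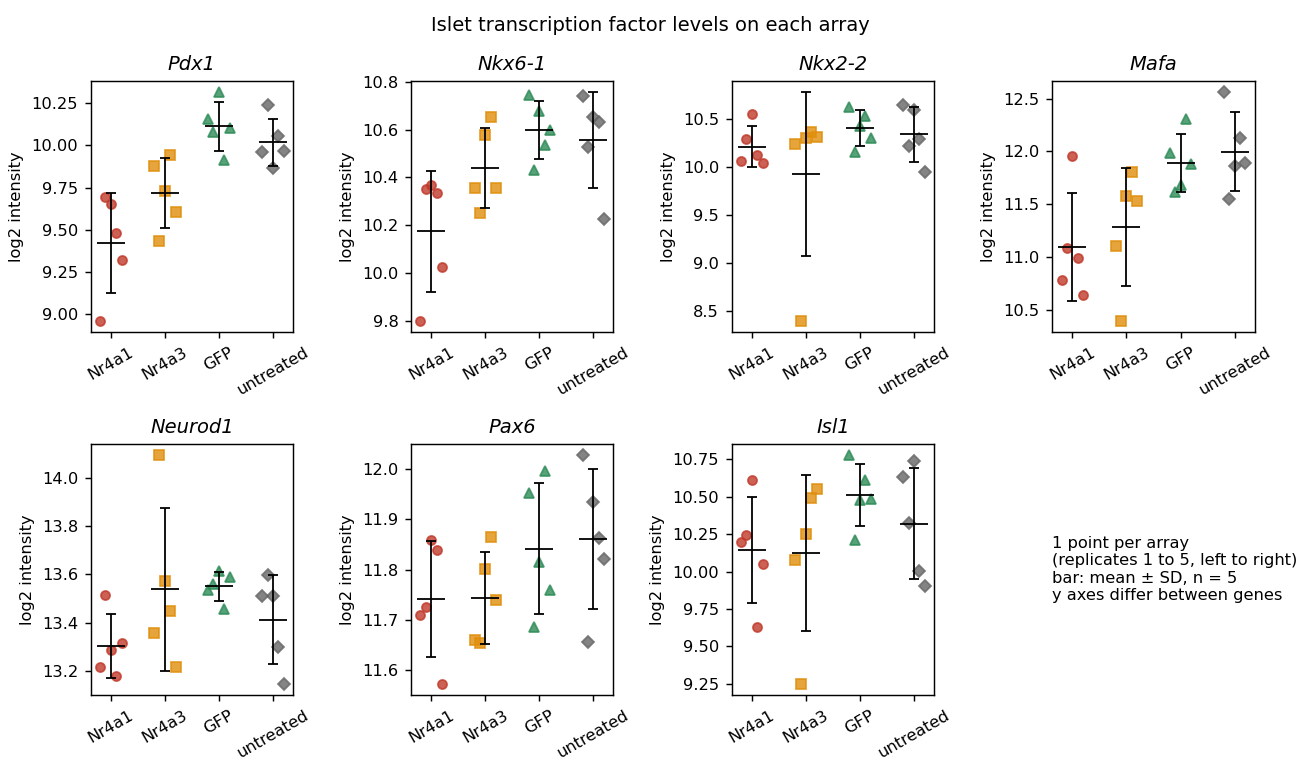
Level of each of the 7 measured factors on each array (log2 intensity, vertical axes differ between genes) in the Nr4a1, Nr4a3, GFP and untreated groups, with 1 point per array and bars for mean ± SD (n = 5). All Nr4a1 arrays lie below all GFP arrays for Pdx1 and Nkx6-1, and for Nkx2-2 a single Nr4a3 array at 8.40 lies far below the rest.

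Mafa, an activator of insulin transcription in mature beta cells, had the largest mean difference of the 7 in this comparison. It read 10.79, 11.09, 11.96, 11.00 and 10.65 in the Nr4a1 arrays, against 11.99, 11.61, 11.68, 12.30 and 11.88 in the GFP arrays. Nr4a1 replicate 3 lay inside the GFP range and the other 4 Nr4a1 arrays lay below it. The difference was -0.80 ± 0.26 (SE, 95% interval -1.34 to -0.26) and missed the threshold with a limma adjusted p of 0.0601. It passed without Nr4a1 replicate 3, at -1.01 (limma adjusted p = 0.00981), and without Nr4a3 replicate 2, which adds to the shared estimate of the spread (adjusted p = 0.0137). Against the untreated arrays it was -0.90 with a limma adjusted p of 0.0334. Of 20 fits that each left out 1 array, only the 2 named above called Mafa, and limma adjusted p values ran up to 0.163. With the acinar covariate the difference was -0.65 (limma adjusted p = 0.572).

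The factors found across the hormone cell types had smaller mean differences from GFP than Pdx1, Nkx6-1 and Mafa, and none passed the test. Neurod1, which works with Pdx1 on the insulin gene, read 13.22, 13.52, 13.29, 13.18 and 13.32 in the Nr4a1 arrays, against 13.54, 13.56, 13.62, 13.46 and 13.59 in the GFP arrays. Of the Nr4a1 arrays, 4 lay below the whole GFP range and replicate 2 lay inside it, for a difference of -0.25 ± 0.13 (SE, limma adjusted p = 0.287). Nr4a3 replicate 2 adds to that SE through the shared estimate of the spread. Without that array the SE was 0.09 (limma adjusted p = 0.0512), and with only the 10 arrays compared Neurod1 passed (limma adjusted p = 0.0246). Pax6, which activates hormone genes in both alpha and beta cells, read 11.71, 11.73, 11.86, 11.84 and 11.57 in the Nr4a1 arrays, against 11.95, 11.69, 11.82, 12.00 and 11.76 in the GFP arrays. These groups overlapped widely, and the interval of the Pax6 difference, -0.27 to 0.07 around -0.10, leaves out a fall as large as the one measured for Pdx1.

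Isl1, a LIM homeodomain factor needed for endocrine cell maturation, read 10.20, 10.24, 10.61, 9.63 and 10.05 in the Nr4a1 arrays, against 10.78, 10.21, 10.48, 10.61 and 10.49 in the GFP arrays. Replicate 3 of the Nr4a1 arrays lay above 3 of 5 GFP arrays, and the difference of -0.37 ± 0.22 (SE, 95% interval -0.83 to 0.10, limma adjusted p = 0.402) was within the spread between arrays. Isl1 also has a dim second probe set, between 4.37 and 4.63 on every array, whose difference was -0.03. Nkx2-2, which represses other hormone fates in beta cells, read 10.07, 10.29, 10.55, 10.13 and 10.04 in the Nr4a1 arrays, against 10.63, 10.16, 10.43, 10.54 and 10.30 in the GFP arrays. Its groups overlapped, with a difference of -0.20 ± 0.27 (SE, 95% interval -0.77 to 0.37, limma adjusted p = 0.807). The width of that interval comes from Nr4a3 replicate 2, through the shared estimate of the spread: without that array the SE was 0.12 around the same difference (limma adjusted p = 0.309). With the acinar covariate the difference was 0.05 ± 0.40 (SE).

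Whether one factor fell more than another was tested by the difference between 2 factors on each array, over all 21 pairs, with exact two-sided permutation of 5 Nr4a1 against 5 GFP arrays, for which 0.00794 is the smallest p. Pdx1 was lower by a further 0.27 than Nkx6-1 and by 0.44 than Neurod1, each with an exact p of 0.00794. Against Pax6 the change of Pdx1 differed by -0.59 and that of Nkx6-1 by -0.32, each with an exact p of 0.0159. After adjustment over the 21 pairs 0 passed, and the smallest adjusted value was 0.0667. With 5 arrays per group, a lone pair at the smallest p could not pass that adjustment, so its outcome does not show equal falls. Pdx1 and Mafa differed in their change by 0.11 (exact permutation p = 0.635). The order of the 7 factors by size of fall is therefore not resolved beyond the raw p values.

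In the islets labelled Nr4a3, 0 of the 7 factors passed the test against GFP, where 1.93% of all genes were called, 1.75% higher and 0.176% lower, and 2 had an unadjusted p under 0.05. All 7 means were again below GFP, with a median difference of -0.39 against 0.00 over all genes. Both receptor groups are set against the same GFP arrays, so the shared direction is not independent. Pdx1 read 9.88, 9.44, 9.73, 9.94 and 9.60 in the Nr4a3 arrays, where 4 of 5 arrays lay below the lowest GFP array, and differed from GFP by -0.39 ± 0.13 (SE, limma adjusted p = 0.142). Mafa read 11.11, 10.40, 11.58, 11.81 and 11.53, and its difference was -0.61 ± 0.26 (SE, limma adjusted p = 0.308). Nkx6-1, at 10.36, 10.25, 10.58, 10.65 and 10.36, differed by -0.16 ± 0.12 (SE, limma adjusted p = 0.601).

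The remaining Nr4a3 values turned on replicate 2. Nkx2-2 read 10.24, 8.40, 10.30, 10.37 and 10.31 in the Nr4a3 arrays, and its difference from GFP was -0.49 ± 0.27 (SE) with replicate 2 and -0.11 without it. Isl1 read 10.08, 9.25, 10.25, 10.49 and 10.55, with differences of -0.39 ± 0.22 (SE) with that array and -0.17 without it. Replicate 2 was the lowest Nr4a3 array for both genes and the highest of all 20 arrays for Neurod1, at 14.09, so that the Neurod1 difference was -0.01 with it and -0.15 without it. The sign of that small difference also turned without other arrays, up to 0.07 without Nr4a3 replicate 5. Without Nr4a3 replicate 2 Mafa differed by -0.39 (limma adjusted p = 0.457) and Pdx1 by -0.32 (limma adjusted p = 0.176), and still 0 of 7 factors passed. Pax6, at 11.66, 11.65, 11.80, 11.86 and 11.74, differed by -0.10 ± 0.08 (SE).

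The difference between both receptor groups was tested directly. In Nr4a1 against Nr4a3 arrays, 0 of 7 factors passed by limma, where 0.633% of all genes did, and 2 had an unadjusted p under 0.05. Those 2 were Pdx1, at -0.30 ± 0.13 (SE, limma adjusted p = 0.380), and Nkx6-1, at -0.26 ± 0.12 (SE, limma adjusted p = 0.412). That Pdx1 and Nkx6-1 passed against GFP in one group and not in the other is thus not shown to be a difference between the receptors. In GFP against untreated arrays 0 of 7 were called by limma, 0 had an unadjusted p under 0.05, 0% of all genes were called, and the differences ran from -0.11 for Mafa to 0.19 for Isl1. The widest of those intervals ran from -0.50 to 0.64 for Nkx2-2, from -0.64 to 0.43 for Mafa and from -0.27 to 0.66 for Isl1, and effects of the virus inside them are not outside the precision of 5 arrays.

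**Figure D2:**
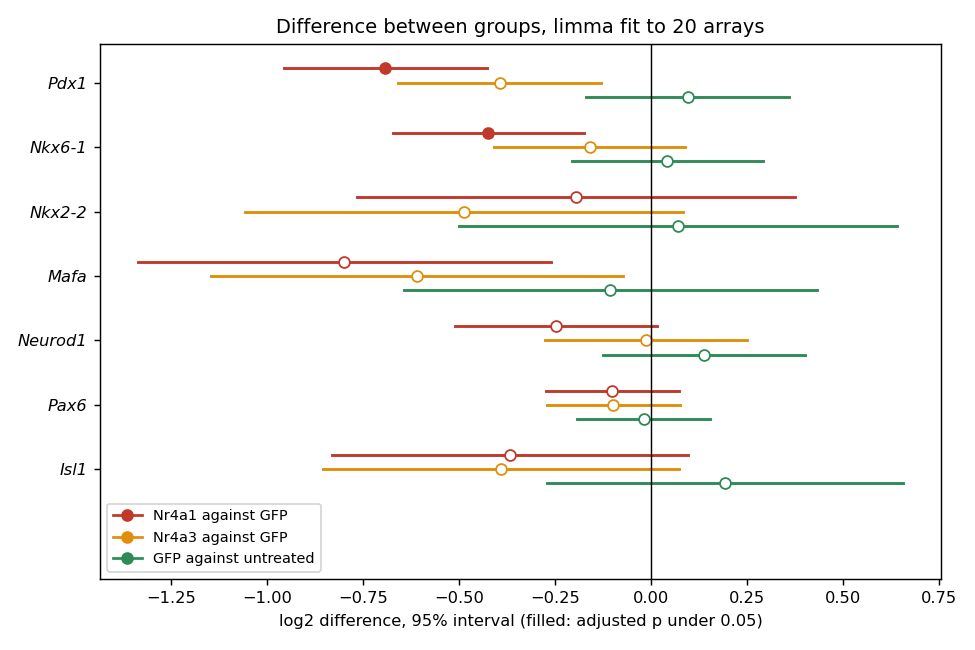
Differences in log2 intensity with 95% intervals from the limma fit to 20 arrays (horizontal axis) for each factor (vertical axis), in Nr4a1 against GFP, Nr4a3 against GFP and GFP against untreated arrays. Filled points passed an adjusted p of 0.05, and the only filled points are Pdx1 at -0.69 and Nkx6-1 at -0.42 in Nr4a1 against GFP.

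For the 2 called factors, the RefSeq sequence upstream of their start sites (rat build GRCr8) is shown, 250 bases each, 5' to 3' on the strand of the gene. Windows were present for 6 of the 8 factors, while Mafa and Rfx6 had none in the table used. Capitals mark the TAAT core bound by many homeodomain proteins and the E-box CANNTG bound by basic helix-loop-helix proteins such as Neurod1, searched on both strands.
Pdx1, chr12:12799157-12799406, minus strand: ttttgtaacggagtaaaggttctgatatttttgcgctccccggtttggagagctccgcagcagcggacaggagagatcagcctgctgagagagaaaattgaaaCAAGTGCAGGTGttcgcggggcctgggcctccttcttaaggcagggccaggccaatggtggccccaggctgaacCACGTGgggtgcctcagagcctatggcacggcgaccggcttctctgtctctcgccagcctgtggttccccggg
Nkx6-1, chr14:8273988-8274237, plus strand: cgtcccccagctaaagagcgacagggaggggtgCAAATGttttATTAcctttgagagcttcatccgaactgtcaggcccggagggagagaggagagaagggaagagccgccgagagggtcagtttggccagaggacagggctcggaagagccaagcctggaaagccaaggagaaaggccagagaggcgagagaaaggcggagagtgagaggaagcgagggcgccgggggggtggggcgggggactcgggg

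The Pdx1 stretch holds 3 E-boxes, CAAGTG and CAGGTG side by side, beginning 147 and 141 bases before the start site, and CACGTG beginning 73 bases before it. No marked motif overlaps another. In Nkx6-1 the E-box CAAATG begins 217 bases before the start and the homeodomain core, read here as ATTA, 207 bases before it. The search used windows of 300 bases that run 50 bases past 1 start of each gene, which for Pax6 and Nkx2-2 lies inside the annotated gene. In them an E-box was found in 4 of the 6 factors and in 72.10% of all 33469 promoters, and TAAT in 3 of 6 and in 60.63%. The NBRE AAAGGTCA, the element that NR4A receptors bind as single molecules, was found in 0 of 6 windows and in 1.43% of all promoters. Its half-site AGGTCA, which the NBRE contains, was found in 0 of 6 and in 16.18%. An absent match says only that these letters are not in this window.

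Other islet transcription factors passed the test in the Nr4a1 arrays about as often as genes at large. Of 29 listed, 22 were measured, of which 1 rose and 1 fell against GFP, where 8.71% of all genes were called. The median difference of the 22 was -0.08, in a range from -0.73 to 0.69. Lower means than in GFP arrays were seen for 17 of 22, and 7 of 22 had an unadjusted p under 0.05. Hnf4a, a nuclear receptor shared by liver, gut and islet, averaged 8.40 ± 0.19 in Nr4a1 arrays and 8.91 ± 0.09 in GFP arrays (SD, n = 5 each), a difference of -0.51 ± 0.09 (SE, limma adjusted p = 0.000956). Tcf7l2, a mediator of Wnt signalling, averaged 7.59 ± 0.35 in Nr4a1 arrays and 6.90 ± 0.22 in GFP arrays, a difference of 0.69 ± 0.19 (SE, limma adjusted p = 0.0230). In both genes the brightest probe set stood alone: 2 other Hnf4a probe sets differed by -0.03 and 0.01, and 4 other Tcf7l2 probe sets by -0.02 to 0.25. Tcf7l2 also missed the threshold without Nr4a1 replicate 1, 4 or 5 or GFP replicate 5, with limma adjusted p values up to 0.0758. The progenitor factors Neurog3 and Pax4, at -0.06 and 0.01, did not pass, and Insm1 and Mnx1 were not analysed here. Without Nr4a3 replicate 2 the count was 1 risen and 4 fallen (Hnf4a, Hhex, Ldb1 and Mlxipl), so it depends on that array. Array weights called 8 of 22, 7 of them lower. Over all 14217 genes, 3576 were called with array weights and 2714 without Nr4a3 replicate 2, against 1239 with all arrays unweighted. The acinar covariate called 0 of 22, a fit in which calls over all genes dropped to 215. In the Nr4a3 arrays 0 of 22 passed by limma, with 3 at an unadjusted p under 0.05.

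The next list holds genes through which these factors shape beta cell function. Of 20 listed, 13 were measured, and in the Nr4a1 arrays 4 fell, where 2.55% of all genes fell, 0 rose and the median difference was -0.55. Gipr, the receptor for the gut hormone GIP, averaged 8.68 ± 0.25 in Nr4a1 arrays and 9.43 ± 0.19 in GFP arrays (SD, n = 5 each), a difference of -0.76 ± 0.12 (SE, limma adjusted p = 0.000320). Kcnj11, the pore of the ATP-sensitive potassium channel, differed by -0.57 ± 0.10 (SE, limma adjusted p = 0.00141), and Ero1b, an oxidase for disulphide bonds in proinsulin folding, by -0.63 ± 0.12 (SE, limma adjusted p = 0.00230). Slc2a2, the glucose transporter GLUT2, differed by -0.56 ± 0.17 (SE, limma adjusted p = 0.0432), a call kept in 7 of 20 fits that each left out 1 array, with adjusted p values up to 0.123. Without Nr4a3 replicate 2, 6 of the 13 fell, with Abcc8 and Glp1r added. That fit called 2714 of 14217 genes, against 1239 with that array. With the acinar mean as a covariate Gipr alone remained called, and Ero1b, Kcnj11 and Slc2a2 had limma adjusted p values of 0.209, 0.119 and 0.607.

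The hormone genes themselves did not pass. Ins1 differed by 0.00, Ins2 by -0.01 and Iapp, which encodes islet amyloid polypeptide, by -0.02 in Nr4a1 against GFP arrays, all with levels near the top of the intensity scale, where an array compresses differences. Of 8 hormone genes 0 passed by limma, with 0 at an unadjusted p under 0.05. Of 16 genes of secretory granules and neuroendocrine cells 1 rose, Chgb, encoding a granule protein, by 0.35 ± 0.09 (SE, limma adjusted p = 0.0183), and 0 fell. That call was lost without Nr4a1 replicate 5 or GFP replicate 5 (limma adjusted p = 0.0516 and 0.0604). It was also lost with the acinar covariate (limma adjusted p = 0.457), with repeated quantile normalization and with untreated arrays in place of GFP. In the Nr4a3 arrays Gipr alone of the 13 beta cell genes fell, by 0.64 on the log2 scale (limma adjusted p = 0.00563), and Chgb rose by 0.47 ± 0.09 (SE, limma adjusted p = 0.00908).

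**Figure D3:**
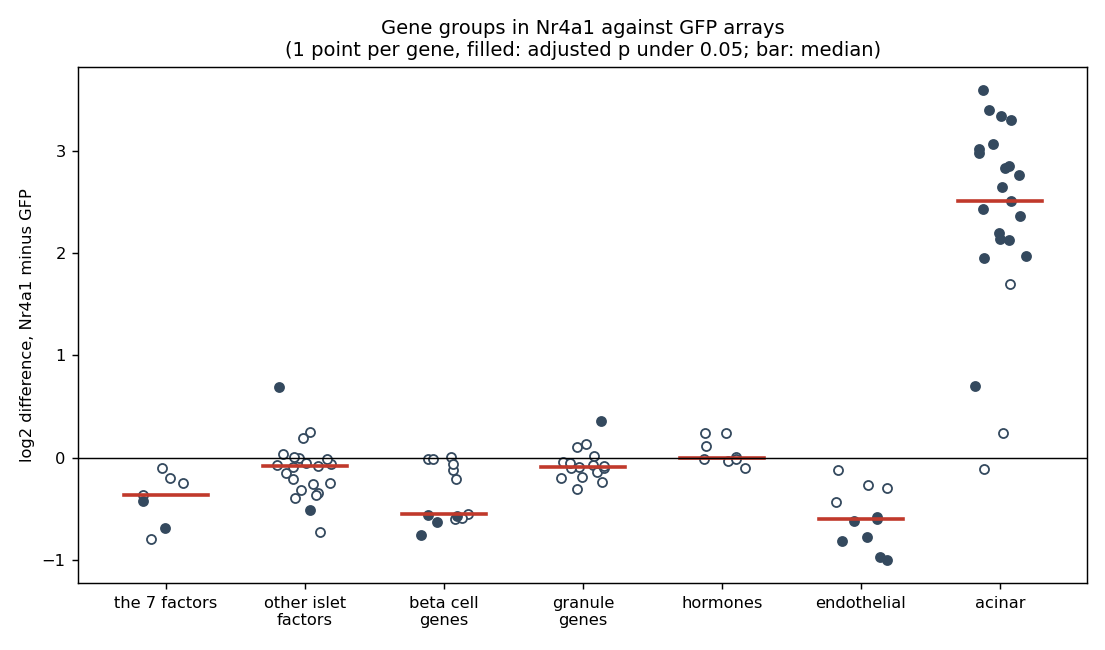
Difference in log2 intensity, Nr4a1 minus GFP (vertical axis), of every measured gene in 7 gene groups (horizontal axis), with 1 point per gene, filled where the adjusted p was under 0.05 and a bar at the median. The 7 factors centre on -0.37, the beta cell genes on -0.55, the hormone genes on -0.00 and the acinar genes on 2.51.

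Genes of acinar cells, the enzyme-secreting cells of the exocrine pancreas, were mostly higher in the Nr4a1 arrays, where the means of the factors were lower. In Nr4a1 arrays 20 of 23 measured acinar genes rose against GFP, with a median difference of 2.51, and none of the 23 fell. Their mean log2 level per array ran from 9.68 to 10.95 in Nr4a1 arrays, 8.65 to 9.45 in Nr4a3 arrays and 6.92 to 9.23 in GFP arrays, against 6.95 to 10.24 in untreated arrays. Endothelial genes were lower, and 7 of 11 fell with a median of -0.60, while 0 of 7 duct, 0 of 10 stellate and 0 of 10 macrophage genes passed by limma, with 1, 0 and 1 at an unadjusted p under 0.05. The mean of the 16 granule genes, which all endocrine cell types express, lay between 11.94 and 12.26 in Nr4a1 arrays and between 12.00 and 12.17 in GFP arrays.

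With the mean of the acinar genes as a covariate in the fit, 0 of 7 factors passed by limma in Nr4a1 against GFP: Pdx1 differed by -0.41 ± 0.17 (SE, limma adjusted p = 0.320) and Nkx6-1 by -0.10 ± 0.15 (SE, limma adjusted p = 0.873). With the mean of the granule genes as a covariate 3 passed, Pdx1 at -0.67, Nkx6-1 at -0.39 and Mafa at -0.68 (limma adjusted p = 0.000862, 0.0161 and 0.00198). Untreated replicate 5 had acinar genes at 10.24, inside the Nr4a1 range, and read 9.97 for Pdx1, above every Nr4a1 array, and 10.22 for Nkx6-1, inside the Nr4a1 range. In Nr4a1 arrays the acinar level was above every GFP array, so acinar level and these 2 groups cannot be told apart. The part of acinar RNA in the lower factors was not tested beyond these values.

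**Figure D4:**
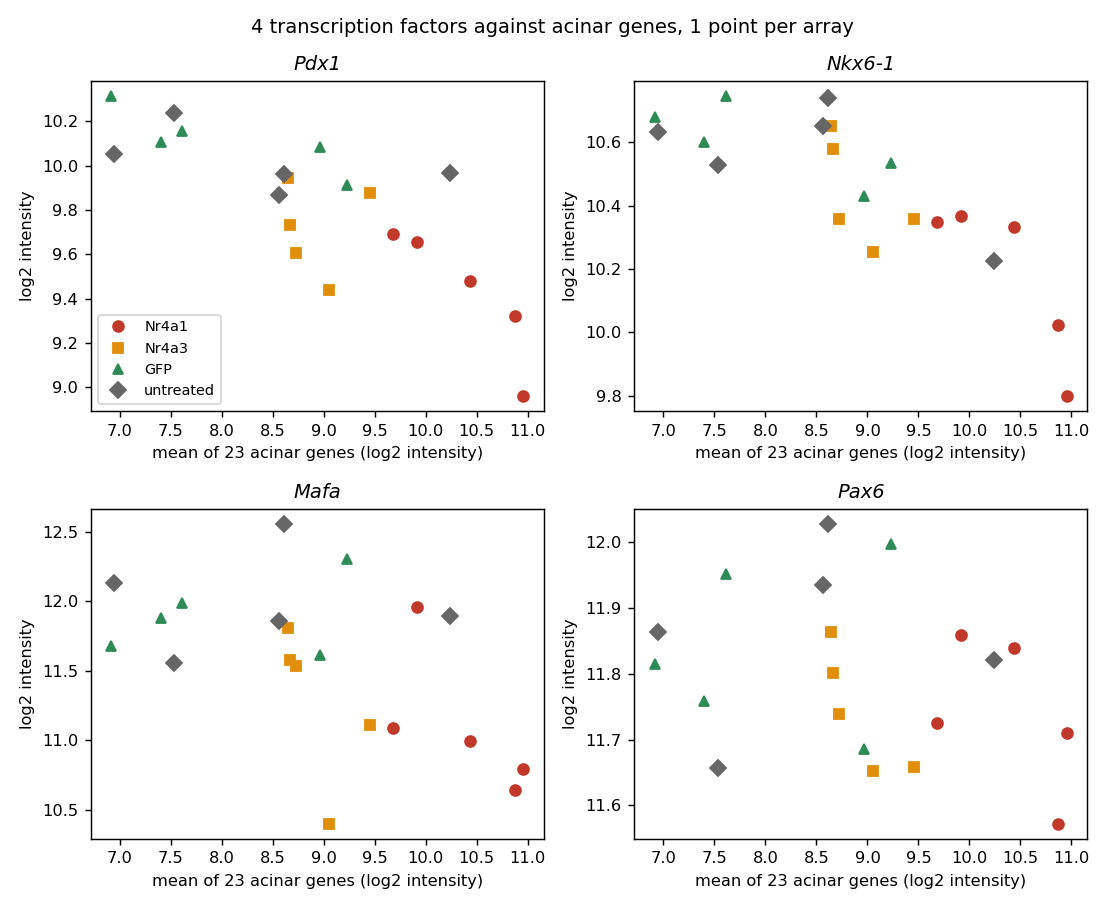
Level of Pdx1, Nkx6-1, Mafa and Pax6 (log2 intensity, vertical axes) against the mean log2 level of 23 acinar genes (horizontal axes), 1 point per array, by group. Untreated replicate 5, at an acinar mean of 10.24, reads 9.97 for Pdx1, above all Nr4a1 arrays, and 10.22 for Nkx6-1, inside their range.

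Correlations between the factors differed widely in size, and whether the factors form separate blocks was not tested. Over the 19 arrays without Nr4a3 replicate 2, which share the group differences and the acinar differences above, the pairs with the highest Pearson correlation were Nkx2-2 with Isl1 at 0.838, Pdx1 with Nkx6-1 at 0.822 and Mafa with Pax6 at 0.796. Taken as deviations from group means these were 0.795, 0.628 and 0.794. The lowest was Neurod1 with Pax6 at 0.114. With the mean of the acinar genes, the factors correlated at -0.825 (Nkx6-1), -0.820 (Pdx1), -0.648 (Neurod1), -0.577 (Mafa), -0.486 (Nkx2-2), -0.440 (Isl1) and -0.280 (Pax6). As deviations from group means the values were -0.631 (Nkx6-1), -0.532 (Pdx1), -0.418 (Neurod1), -0.116 (Mafa), -0.286 (Nkx2-2), -0.220 (Isl1) and -0.005 (Pax6). With the mean of the granule genes the values were 0.778 for Nkx2-2, 0.723 for Mafa, 0.722 for Pax6, 0.673 for Isl1, 0.556 for Nkx6-1, 0.201 for Pdx1 and 0.155 for Neurod1.

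Among 10775 other genes with a mean log2 of at least 6, those most like each factor over the same 19 arrays were as follows, by Pearson correlation and then by that of deviations from group means. For Pdx1 they were Rassf3 (0.925 and 0.729) and Pgap6 (0.920 and 0.657), and for Nkx6-1 Tasor (0.919 and 0.758) and Slc16a10 (0.916 and 0.853). Mafa was closest to Suox (0.958 and 0.799) and Entpd3 (0.957 and 0.806), and Isl1 to Gad2 (0.914 and 0.892) and Ywhab (0.906 and 0.665). For Nkx2-2 they were Aplp1 (0.868 and 0.896) and App (0.860 and 0.725), for Neurod1 Slc6a6 (0.883 and 0.848) and Mfap3 (0.880 and 0.644), and for Pax6 Jcad (0.902 and 0.863) and Ap1s2 (0.877 and 0.885). These are descriptions of 19 arrays, chosen as the highest of many, and several rest on leaving out Nr4a3 replicate 2: over all 20 arrays Ywhab correlated at -0.009 with Isl1, Mfap3 at 0.152 with Neurod1, App at 0.499 with Nkx2-2 and Tasor at 0.546 with Nkx6-1.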

How the data were processed

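RNA of 20 rat islet samples was measured on Affymetrix arrays, 5 in each of 4 groups taken from the labels. Per the submitters' processing notes, the authors made the deposited intensity values with RMA (robust multi-array average), which includes background correction, quantile normalization and probe summary. The sources used here give no version, scan date or batch. The deposited values are linear, from 7.69 to 34261, with array medians of 98.9 to 103, and were log2-transformed with no further scaling. Array number limits the precision. The labels call replicates biological without naming the animals, so p-values measure the spread between these samples.

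Of 31099 probe sets, 20832 had 1 gene symbol, 436 several and 9831 none; 20764 symbols were checked by gene identifier and 0 changed. Each of 14217 genes was read from its probe set of highest mean. The 20 arrays entered a single limma 3.58.1 fit (R 4.3.3) with a mean for each group (16 residual and 3.64 prior degrees of freedom, two-sided), with Benjamini-Hochberg adjustment over all genes and calls at an adjusted p under 0.05. Differences are the first group minus the second. On simulated data for Nr4a1 against GFP over 14217 genes, 63.0% of 100 changes of 0.5 and 92.0% of 100 changes of 1 (log2) were called, with 8 false calls.

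The factors and gene lists were chosen with earlier results of these data known. Named genes are the factors, the called genes of the lists of other islet factors and beta cell genes, fixed examples from both, and the 2 genes most correlated with each factor. Chgb, Abcc8, Glp1r, Hhex, Ldb1 and Mlxipl were named after their values were seen. Alternatives covered the arrays fitted, a replicate block, variance models, array weights, normalization, dim filters, probe set choice, marker covariates and leaving out each array. Promoter sequences are RefSeq's.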

Additional observations from a re-analysis of the deposited data

Results flagged for a closer look

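Nkx2-2 read 8.40 in Nr4a3 replicate 2, far from the other 4 Nr4a3 arrays at 10.24 to 10.37: the gap to its nearest neighbour was 0.936 of the group's whole range, above the 0.71 that Dixon's test sets for 5 samples. It was the single such case among 28 sets of 5 arrays (7 factors in 4 groups), where chance gives about 1 in 20. The same array stood apart in its 3' to 5' control probe sets, and what lowered Nkx2-2 there was not tested.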

How the results depend on the processing

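In Nr4a1 against GFP the count of 2 factors called became 4 with only the 10 arrays compared, 4 with array weights (adding Mafa and Neurod1 in both) and 0 with the acinar mean as a covariate; in Nr4a3 against GFP array weights called 1, Pdx1 (limma adjusted p = 0.0472), against 0. Leaving out each array in turn gave 1 to 3 in Nr4a1 against GFP and 0 in the other comparisons. The replicate block called 3, and 4 without Nr4a3 replicate 2, a setting added after the data were seen; same-numbered arrays had correlations of deviations from -0.297 to 0.404, so the numbers are not shown to pair samples. Mafa passed in 7 of 14 alternatives other than leaving out an array, Pdx1 in 13 and Nkx6-1 in 12. No called factor turned sign. Of those not called, Nkx2-2 in Nr4a1 against GFP was 0.05 with the acinar covariate, and Neurod1 in Nr4a3 against GFP, at -0.01, became 0.04 with it and 0.12 with untreated arrays in place of GFP. Over all genes, 1239 were called in Nr4a1 against GFP, 2714 without Nr4a3 replicate 2, 2853 with only the 10 arrays, 3576 with array weights, 742 without Nr4a1 replicate 1 and 215 with the acinar covariate.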
